A study of Mus musculus with 2 samples.

Results

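Matrix fibroblasts of control lung organoids were 391 of the 5167 cell barcodes in the series, or 18.6% of the 2101 barcodes of the control library. They were chosen by measured values, namely the counts of unique molecular identifiers (UMIs) of named genes in each cell. A stromal base of 852 control cells had more than 3 times as many UMIs of Col1a2, Col3a1, Sparc and Dcn together as of Epcam, Cdh1, Cldn3, Cldn7 and Krt18, and at most 2 UMIs of Mki67, Top2a, Cdk1, Birc5 and Ube2c. Within the base a matrix score f was made from Dcn, Lum and Ogn and a contractile score m from Acta2, Tagln and Myl9, each as the mean natural log of 1 plus the UMIs per 10000 in the cell, expressed in SDs from the mean of the base. The 391 cells with f at or above m are the matrix fibroblasts (45.9% of the base, exact Clopper-Pearson 95% interval 42.5 to 49.3), and the 461 with f below m are called contractile-side stromal cells here. Levels of the genes in the rule, and every comparison of the matrix fibroblasts with the contractile-side or the epithelial cells, therefore describe the choice and are no test of it.

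Organoids were seeded in Matrigel from sorted SPC lineage-labeled alveolar type 2 (AT2) cells together with stromal cells expanded from lung, and the dissociated organoids went into droplet-based 3′ scRNA-seq. The control organoids received PBS and the other organoids IL-1β, an inflammatory cytokine, with 1 library for each condition. The legend gives 10 ng/mL of IL-1β and day 21, whereas the culture methods give 20 ng/mL and the sample description 2 weeks. The study left stromal cells out of its analysis of the epithelial cells but analyzed the co-cultured stromal cells separately. In IL-1β-treated stromal cells it reported increased Ereg, Spp1, Hgf and Grem1/2 and reduced Bmp4. AT2 cells of both groups came from SPC-CreERT2;R26R-tdTomato mice on the C57BL/6 strain, 6 to 10 weeks old in most experiments, given 0.2 mg tamoxifen per g body weight. The Sftpc promoter drives the Cre in these mice, so the tdTomato label marks AT2 cells and their progeny and not the stromal cells. The stromal cells had been depleted of CD31+, EpCAM+ and CD45+ cells and expanded in culture before use, so they model cultured lung mesenchyme. The control matrix fibroblasts held 6434916 UMIs, with a median of 15071 UMIs and 3926 genes per cell (4605 to 66746 UMIs). Control epithelial cells, chosen by the reverse of the same ratio, were 569 cells with a median of 14482 UMIs, and 11 barcodes occurred in both libraries.

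Fibroblasts of the alveolar wall lie next to AT2 cells and lay down collagen, elastic fibers and proteoglycans. They also secrete the signals that make up much of the AT2 niche. FGF7, FGF10 and HGF act on receptors of epithelial cells, R-spondins raise the response to Wnt ligands, and BMP and Wnt antagonists such as gremlin and the SFRP and DKK proteins hold those pathways back. Chemokines made by the same cells recruit leukocytes, and hedgehog ligands from epithelium are received by fibroblasts through PTCH1.

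The label rests on genes that the rule itself used. Lum, which codes for a collagen-binding proteoglycan, had a UMI in 91.3% of the matrix fibroblasts, Dcn in 51.9% and Ogn in 33.2%. All 3 were found in 57 cells, exactly 2 in 185 and 1 in 149. Of the 569 epithelial cells described above, 0 had all 3, 15 had exactly 2 and 165 exactly 1, so a single one of these genes does not set a cell apart from epithelial cells. In the matrix fibroblasts 213 cells had no UMI of Acta2, Tagln or Myl9. Gdf10, a BMP-family gene given as a marker and not used by the rule, had 29.7 UMIs per 1000000 UMIs of the group (CPM) in matrix fibroblasts and 22.8 CPM in contractile-side cells. That ratio of 1.3 (95% interval 1.06 to 1.60) was below 2-fold, so the marker outside the rule did not separate the matrix from the contractile side. The contractile side was itself mixed, since 145 of its 461 cells had no contractile UMI and 247 had none of Dcn, Lum and Ogn. Within 0.25 SD of the cut lay 146 of the 852 base cells, 81 of them inside. The nearest cell inside had f minus m of 0.000384, with 1 UMI each of Dcn, Lum and Acta2, and the nearest outside had -0.000961, with 1 UMI of Ogn and none of the other 5 genes.

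General fibroblast genes were present on both sides of the cut. Col1a1, a chain of type I collagen, was at 1628 CPM in matrix fibroblasts, 1078 CPM in contractile-side cells and 22.8 CPM in epithelial cells. Pdgfra, the receptor that marks much of the lung mesenchyme, was at 229.5, 152 and 3.26 CPM in the same order. The alveolar fibroblast genes Tcf21, Wnt2 and Slc38a5 had 0 of 6434916 UMIs, which allows up to 3 UMIs each, whereas Mfap4 was at 275 CPM and Inmt at 69.0 CPM. Of the adventitial list, Serpinf1 led with 442 CPM and Col14a1 had 1.40 CPM. In the same order of groups the 10 alveolar genes summed to 665, 590 and 331 CPM. The 10 adventitial genes summed to 605, 503 and 283 CPM. Of 7 alveolar genes with at least 100 UMIs over both groups, 5 were over 2-fold higher than in epithelial cells and Ces1d was lower. Of 4 such adventitial genes, 2 were higher and 2 lower (Dpp4 and Ly6c1). Against contractile-side cells Inmt was higher and Npnt lower.

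**Figure D1:**
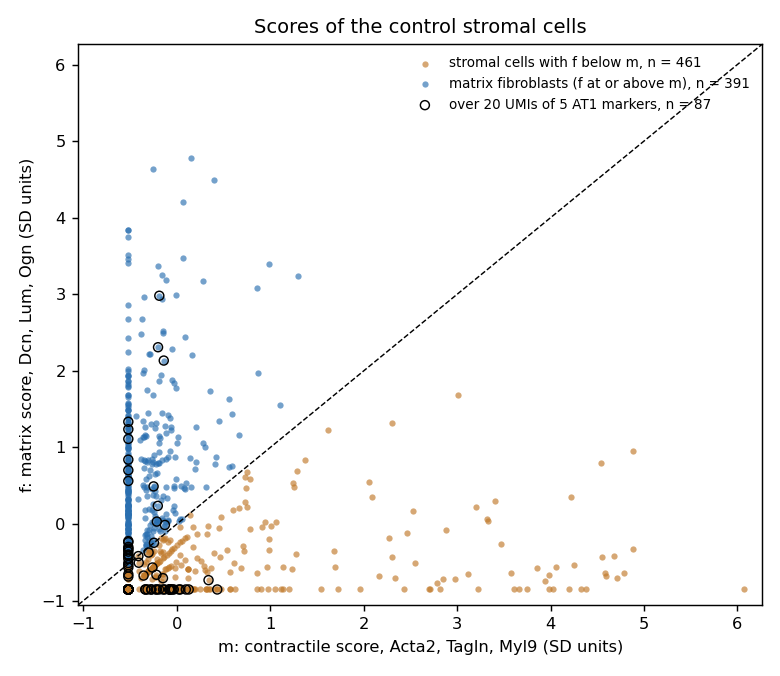
Matrix score f against contractile score m for the 852 cells of the control stromal base, in SDs from the mean of the base. Matrix fibroblasts lie on or above the dashed line of equal scores (n = 391), many of them at the lowest m because they have no contractile UMI, and black circles mark the 87 cells with more than 20 UMIs of 5 AT1 markers.

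Markers of other cells were counted in the same sums. Ptprc and Cd3e (immune), Cdh5, Cldn5 and Emcn (endothelial) and Wt1, Msln and Lrrn4 (mesothelial) had no UMI in the matrix fibroblasts. The 6 endothelial genes summed to 2.80 CPM, and the 7 immune genes to 17.4 CPM, led by Cd68. The 5 mesothelial genes summed to 17.9 CPM, of which Krt19 made up 17.7, and Krt19 was at 98.1 CPM in epithelial cells. The 6 chondrocyte or bone genes summed to 93.2 CPM, led by Sox9 (48.3 CPM), against 4.78 CPM in epithelial cells. Pericyte genes summed to 312 CPM, of which the shared mesenchymal receptor Pdgfrb made up 240.1. Genes of lipid-laden fibroblasts summed to 837 CPM, led by Lpl (432 CPM). Epithelial genes were present as well, with the 8 AT2 genes at a sum of 5600 CPM and the 5 airway genes at 22.8 CPM. Sparc is also found in AT1 cells, and 25 matrix fibroblasts (6.39%) and 62 contractile-side cells had more than 20 UMIs of Ager, Rtkn2, Akap5, Clic5 and Hopx. Of those 25, 12 had fewer than 10 UMIs of 6 stromal genes (Col1a1, Col5a2, Bgn, Mfap4, Loxl1 and Fstl1). All 7 AT1 genes were detected and summed to 1210 CPM in matrix fibroblasts, 2842 CPM in contractile-side cells and 2504 CPM in epithelial cells, with Ager the most abundant. Doublets were not removed, and their part in these values was not tested.

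Genes of the other cell type gave a background that differed by direction, and the part of free RNA or doublets in it was not tested. The 6 stromal genes appeared in epithelial cells at 1.28 to 2.64% of their level in matrix fibroblasts. In the matrix fibroblasts, 8 AT2 markers appeared at 3.22 to 5.08% of their epithelial level, with Sftpc at 4173 against 101657 CPM. Without the 25 cells with AT1 markers the ratios of these 8 markers to their epithelial level ran from 0.0240 (Sftpd) to 0.0320 (Sftpc). Levels at or below these shares are read as background.

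Niche genes were next set beside the epithelial cells of the same library. Of 114 niche genes (86 ligands, 18 inhibitors and 10 binding proteins), 80 had at least 100 UMIs over both groups, and 62 of these were higher and 7 lower in matrix fibroblasts. A gene was counted where the 95% limit of its ratio nearest 1 lay past 2-fold. Of all 9240 genes with as many UMIs, 17.0% were higher and 9.70% lower, but the rule used this contrast and nothing is read from the counts. The median log2 ratio was 4.83 over the niche genes and 0.32 over all genes. Each condition has 1 library, so cells are not replicates, no p-value or standard error is given, and all intervals here are exact and cover counting error only. The 3′ UMI counts were not divided by transcript length, so levels are compared between groups of cells and not between genes.

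Of 5 FGF and HGF genes with enough UMIs, which code for growth factors of epithelial cells, 4 were higher and 1 was lower than in epithelial cells. Fgf7 was at 222.5 CPM (95% interval 211 to 234) in matrix fibroblasts and 7.80 CPM in epithelial cells, a ratio of 28.5 (22.3 to 37.0). Fgf10 was at 67.6 against 1.16 CPM, a ratio of 58.0 (31.3 to 122). Hgf was at 17.1 against 0.582 CPM, a ratio of 29.4 (12.2 to 92.2). Fgf1, which lacks a classical signal peptide, went the other way, at 10.4 against 41.2 CPM. Its level in matrix fibroblasts, 25.3% of that in epithelial cells, was above the background share. Without the 25 cells with AT1 markers Fgf1 was at 4.46 CPM in matrix fibroblasts, a ratio of 0.108. With epithelial cells chosen without Sparc (1126 cells) its log2 ratio went from -1.99 to -2.61. Igf1, a growth factor with endocrine and local sources, was at 447 against 6.17 CPM, a ratio of 72.4 (55.2 to 96.9).

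Wnt-pathway ligands were divided between the cell types. Rspo3 and Rspo1, which code for R-spondins, were at 227 and 131.5 CPM in matrix fibroblasts and at 4.43 and 1.86 CPM in epithelial cells. Wnt5a, mostly a ligand of the noncanonical pathway, was at 72.1 against 0.582 CPM, a ratio of 124 (52.7 to 383). The log2 ratio of Wnt5a went from 6.95 to 6.08, and that of Rspo1 from 6.14 to 5.28, with epithelial cells chosen without Sparc. Wnt7b was at 1.40 against 12.5 CPM and was lower in the matrix fibroblasts. Of 13 Wnt and R-spondin genes 5 reached 100 UMIs, and Wnt2 had no UMI in either group.

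In the TGF-β family, Inhba, which codes for a subunit of activin A, was at 129.9 against 1.05 CPM (ratio 124, 65.0 to 272). Tgfb2 was at 137.5 against 3.84 CPM and Tgfb3 at 47.4 against 4.66 CPM. With epithelial cells chosen without Sparc the log2 ratio of Tgfb2 went from 5.16 to 2.40. Bmp5 was lower in the matrix fibroblasts, at 13.1 against 66.9 CPM. Bmp4 and Tgfb1 lay between, at 82.1 against 65.9 CPM (ratio 1.24, 1.10 to 1.40) and 49.7 against 36.8 CPM (ratio 1.35, 1.15 to 1.58). Of the 11 genes of this family with enough UMIs, 6 were higher, 1 was lower and 4 lay between.

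The EGF family showed a similar split. Ereg (epiregulin) was at 60.9 against 1.86 CPM and Nrg1 (neuregulin 1) at 16.6 against 2.45 CPM. In the epithelial group chosen without Sparc Nrg1 was at 8.88 CPM and the log2 ratio of 0.91 was below 2-fold. Areg (amphiregulin) was at 4.51 against 45.3 CPM, a ratio of 0.0995 (0.0657 to 0.145), and without the 5% of barcodes with the most UMIs its log2 ratio went from -3.33 to -4.59. Hbegf was at 44.4 against 32.7 CPM, but 78.3% of its UMIs in matrix fibroblasts were in the 25 cells with AT1 markers, and 45.1% in a single cell. Without those 25 cells it was at 10.2 CPM, a ratio of 0.313.

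Among PDGF and VEGF genes, Pdgfc, whose product binds PDGFRA, was at 18.2 against 0.116 CPM and Figf, which codes for VEGF-D, at 122.6 against 2.68 CPM. With epithelial cells chosen without Sparc, which had 0.769 CPM of Pdgfc, its log2 ratio went from 7.29 to 4.56. Vegfa was at 198 against 85.0 CPM, a ratio of 2.33 (2.13 to 2.56). The epithelial group chosen without Sparc had 191 CPM of Vegfa, so the counted difference for Vegfa depended on which epithelial cells were compared. Without AT1-marker cells among the matrix fibroblasts the ratio was 1.94.

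Of 11 chemokine genes 10 had enough UMIs, with 8 higher and 1 lower. Cxcl12, a chemokine that retains leukocytes and progenitor cells, was at 1132 CPM (1106 to 1158) against 34.7 CPM. Ccl2 and Ccl7, attractants of monocytes, were at 719 against 25.3 CPM and 503 against 16.0 CPM. Ccl11 (eotaxin), an attractant of eosinophils, was at 284 against 2.91 CPM, a ratio of 97.6 (65.9 to 151). These 3 genes are neighbors on the plus strand of chromosome 11 (GRCm38), with Ccl2 at 82035571 to 82037453, Ccl7 at 82045712 to 82047525 and Ccl11 at 82057823 to 82062955. Cxcl15 (lungkine), a product of lung epithelium, was at 304 against 8852 CPM and is one of the 8 AT2 markers used above for the background.

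Of 14 cytokine genes, 10 had enough UMIs, with 8 higher and 2 lower. Ptn (pleiotrophin) and Mdk (midkine), related heparin-binding growth factors, were at 417 against 3.26 CPM and 259.7 against 7.11 CPM. Kitl, which codes for stem cell factor, was at 38.5 against 0.582 CPM. Spp1 (osteopontin) was at 1421 against 36.2 CPM. The alarmin Il33 was at 26.0 against 274 CPM, a ratio of 0.0947 (0.0805 to 0.111), and Il34, a ligand of the CSF1 receptor, at 4.66 against 27.4 CPM. Il33 thus lay with the epithelial cells, together with Areg, Bmp5, Fgf1, Wnt7b and Il34. Of the 62 higher genes, 25 had epithelial levels at or below 2.64% of those in matrix fibroblasts, the background share, and 37 had levels above it. Fstl1 is both among the 25 and among the 6 stromal genes that set this share. The epithelial cells were also chosen for few stromal UMIs, so the share depends on the rule and the split is no test.

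Among secreted inhibitors, all 5 Wnt inhibitors with enough UMIs (Sfrp1, Sfrp2, Frzb, Dkk2 and Dkk3) were higher in matrix fibroblasts, with Sfrp1 at 172 against 3.96 CPM and Dkk2 at 180.0 against 1.86 CPM. Grem1 (gremlin 1), a BMP antagonist, was at 609 against 16.4 CPM, a ratio of 37.1 (31.3 to 44.2). Fst (follistatin), an activin antagonist, was at 112 against 3.14 CPM, and Bmper at 136 against 3.96 CPM. Of 7 BMP and activin inhibitors, 5 were higher and 2 lay between.

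All 10 binding proteins were higher in matrix fibroblasts. Igfbp7 was at 7004 against 362 CPM, and its log2 ratio went from 4.27 to 2.89 with epithelial cells chosen without Sparc, which had 946 CPM. Igfbp4, which binds IGF1, was at 2099 against 38.0 CPM. Ltbp2, of the latent TGF-β binding family, was at 546 against 12.3 CPM. Igfbp2, at 104 against 13.7 CPM, again rested partly on AT1-marker cells, which held 48.8% of its UMIs, and 1 cell held 39.5%. In epithelial cells chosen without Sparc it was at 55.8 CPM, and the log2 ratio of 0.90 was below 2-fold. Against the same cells Ltbp3 was at 149 against 77.3 CPM (1.93, 1.77 to 2.10), and its interval no longer lay past 2-fold.

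**Figure D2:**
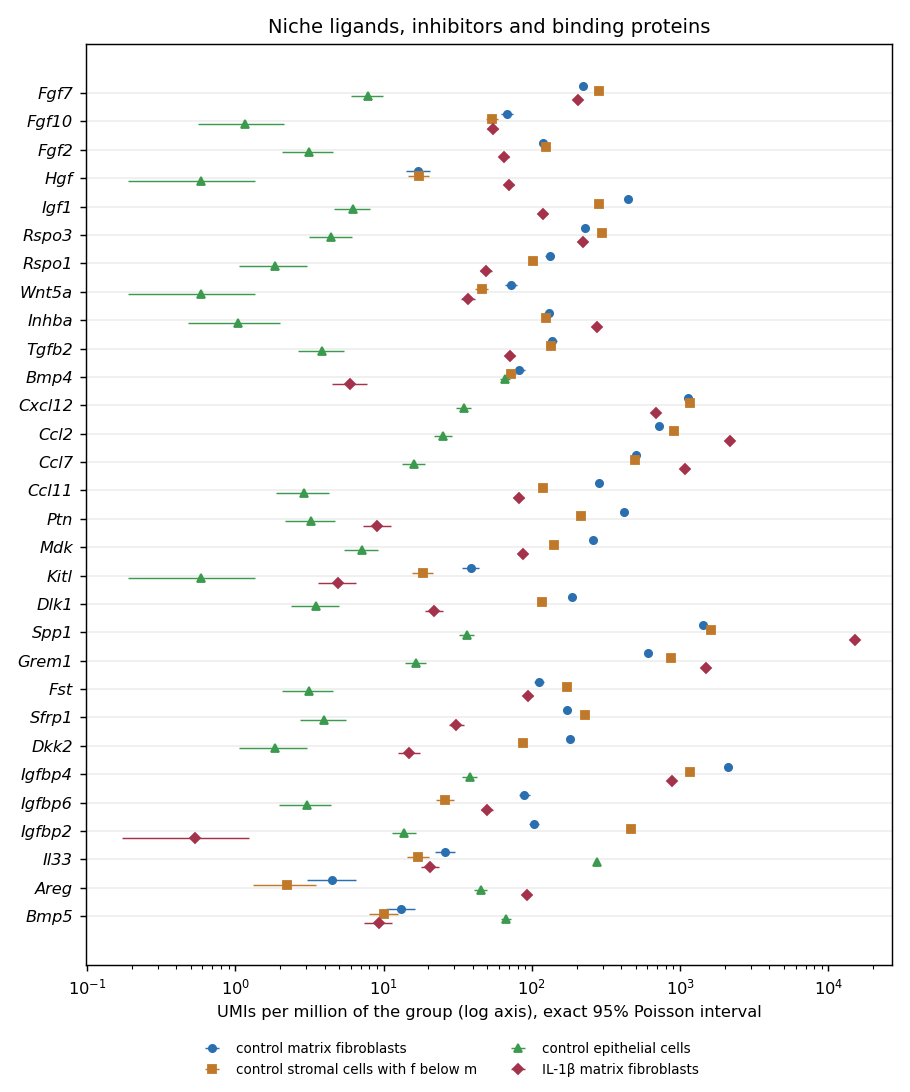
Levels of 30 niche genes in control matrix fibroblasts, contractile-side cells (f below m), epithelial cells and IL-1β matrix fibroblasts, as CPM on a log axis with exact 95% Poisson intervals. Control matrix fibroblasts and contractile-side cells lie close together for most genes, far to the right of the epithelial cells except for Bmp4, Il33, Areg and Bmp5.

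Of 62 receptor genes 44 had enough UMIs, with 24 higher and 4 lower in matrix fibroblasts and a median log2 ratio of 1.28. Receptors for the fibroblasts' own FGF7, FGF10 and HGF were on the epithelial side. Fgfr2, whose epithelial isoform binds FGF7 and FGF10, was at 42.3 CPM in matrix fibroblasts and 226 CPM in epithelial cells (ratio 0.187, 0.164 to 0.213). The HGF receptor Met was at 6.99 against 86.8 CPM (ratio 0.0806, 0.0583 to 0.109), and Erbb3, a neuregulin receptor, at 3.42 against 37.3 CPM. The fourth gene that was lower was Fzd6, a Wnt receptor.

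In the other direction, Fgfr1 was at 273 against 4.08 CPM, Igf1r at 98.1 against 4.31 CPM and Egfr at 49.3 against 6.06 CPM. The IL-1 receptor gene Il1r1 was at 39.3 CPM in matrix fibroblasts and 1.86 CPM in epithelial cells (ratio 21.1, 12.7 to 37.5). Pdgfrb was at 240.1 against 2.33 CPM. Ligand and receptor genes were thus higher in opposite cell groups for FGF7 and HGF, and in the same group for IGF1 and PDGF-C.

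**Figure D3:**
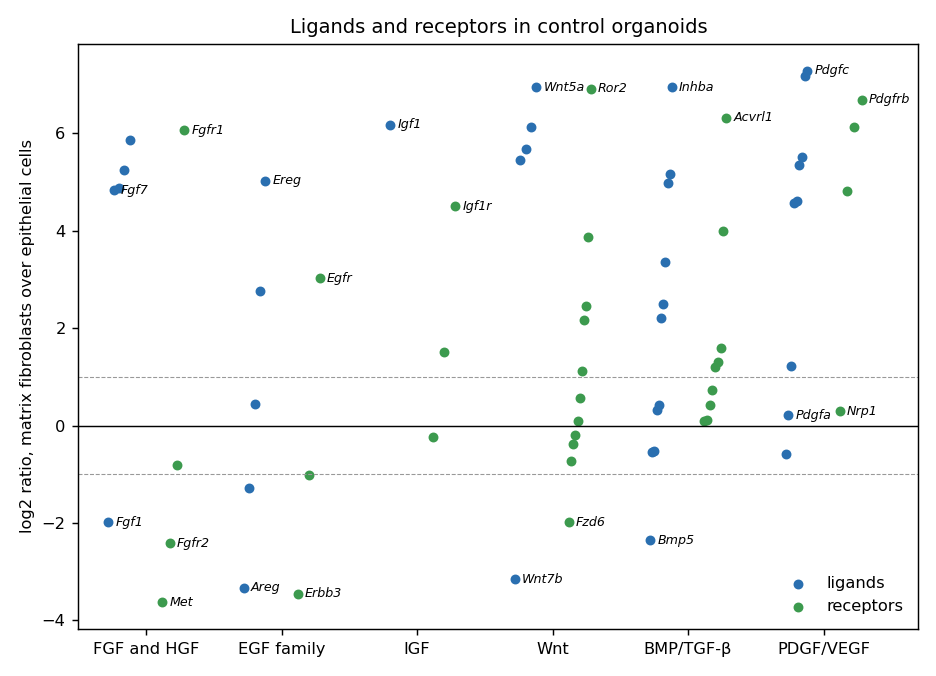
Log2 ratio of matrix fibroblasts over epithelial cells in the control library for the ligands (blue) and receptors (green) of 6 pathways with at least 100 UMIs; dashed lines mark 2-fold either way. Fgf7 lies at 4.83 while Fgfr2 and Met lie below 0, and the Wnt and BMP/TGF-β receptors are spread between the extremes.

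All 3 hedgehog targets with enough UMIs (Gli2, Gli3 and Hhip) were higher in matrix fibroblasts, while Wnt and BMP targets were divided. The hedgehog receptor and target Ptch1 was at 125 against 17.0 CPM and Hhip at 19.1 against 0.349 CPM. Gli1, with under 100 UMIs over both groups, was at 14.1 against 0.466 CPM. Axin2, a Wnt target, was at 21.6 against 4.89 CPM, while Nkd1, also a Wnt target, was at 19.7 against 98.2 CPM. The BMP targets Id1 and Id3 were at 187 against 30.2 CPM and 574 against 18.9 CPM, and Id2 was at 85.3 against 446 CPM.

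Of 16 transcription factors of lung mesenchyme 12 had enough UMIs and 11 of those were higher, with Foxf1, a regulator of lung mesenchyme downstream of hedgehog, at 106 against 1.16 CPM and Ebf1 at 91.2 against 0.233 CPM. All 7 small leucine-rich proteoglycans, all 9 collagens and all 11 elastic fiber genes with enough UMIs were higher. Eln (elastin) was at 195 against 5.24 CPM and Bgn (biglycan) at 3026 against 62.8 CPM. Over all genes, the highest ratios, ranked by the limit nearest 1, were those of Foxf2, Meg3, Ebf1, Chst2, Bnc2, Ptn, Mef2c, Pdgfrb, Ccl11 and Inhba. The lowest were Bcl2a1b, Sftpa1, Cxcl15, Lyz2, Lyz1, Slc34a2, Lrg1, Sftpb, Sftpd and Sftpc.

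Few niche genes were counted between the matrix fibroblasts and the contractile-side cells. Of 81 niche genes with at least 100 UMIs over both groups, 4 were higher and 1 was lower in matrix fibroblasts, and the median log2 ratio was 0.12. Where f and m had to differ by 0.5, which left 260 matrix fibroblasts, 11 were higher and 4 lower. Of all 9240 genes, 0.379% were higher and 0.736% lower, and again the rule made this contrast. Bmp2 was at 49.1 against 13.8 CPM (ratio 3.56, 2.86 to 4.46) and Igfbp6 at 88.7 against 25.9 CPM (3.43, 2.92 to 4.04). Ccl11 was at 284 against 119 CPM (2.40, 2.22 to 2.60) and Igfbp3 at 212 against 88.2 CPM (2.40, 2.19 to 2.63). All 4 had most of their UMIs in few matrix fibroblasts. The 40 cells with the most held 82.3% for Bmp2, 75.1% for Igfbp6, 93.2% for Ccl11 and 69.4% for Igfbp3. With the study's cutoffs on cells Ccl11 (2.12, 1.96 to 2.30) and Igfbp3 (2.09, 1.91 to 2.30) no longer had intervals past 2-fold, which left Bmp2 and Igfbp6. Without cells that had any UMI of the cycling genes, the intervals of Igfbp6 (2.34, 1.89 to 2.92) and Ccl11 no longer lay past 2-fold, and 5 niche genes were higher, namely Bmp2, Igfbp3, Cxcl5 (3.67, 3.30 to 4.10), Sfrp2 (3.02, 2.52 to 3.63) and Igfbp5 (2.52, 2.19 to 2.89). Bmp2 codes for a BMP ligand and the Igfbp genes for proteins that bind IGF1 and IGF2. Igfbp2 was lower, at 104 against 465 CPM (0.223, 0.205 to 0.242). None of 41 receptors was counted in either direction.

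Removing the cells with AT1 markers left 366 matrix fibroblasts and 399 contractile-side cells. Then Igfbp3 was at 207 against 98.0 CPM and its interval no longer lay past 2-fold. Hbegf was at 10.2 against 34.7 CPM and lower, and Igfbp2 was at 56.4 against 267 CPM.

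Most other niche genes were not counted in either direction. Fgf7 was at 222.5 against 282 CPM in contractile-side cells (ratio 0.789), Rspo3 at 227 against 298 CPM (0.762), Grem1 at 609 against 870 CPM (0.700) and Cxcl12 at 1132 against 1164 CPM (0.972). Igf1 was at 447 against 284 CPM (1.57). Outside the niche lists, the Wnt target Axin2 was at 21.6 against 7.52 CPM (2.87, 2.11 to 3.95), the elastic fiber gene Fbln1 at 39.0 against 11.2 CPM (3.48) and Col6a2 at 229 against 96.3 CPM (2.37). Without AT1-marker cells the intervals of Axin2 (2.61, 1.90 to 3.63) and Col6a2 (2.11, 1.93 to 2.31) no longer lay past 2-fold, and that of Fbln1 (3.16, 2.47 to 4.08) did. Apod, which codes for a lipid carrier, led the genes that were higher, at 200.3 against 33.3 CPM, before Pla2g7, Tnfsf9, Retnla and Cadps. As deposited, Pla2g7 had a UMI in 27 of 391 matrix fibroblasts (6.91%) and in 2.60% of contractile-side cells. Those lower were led by Cnn1, Acta1, Car3 and Cfd and included Thbs1, at 409 against 1574 CPM.

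Among the 391 matrix fibroblasts, niche genes ranged widely in how many cells had a UMI. Shares of cells with a UMI are given as deposited and, where compared between cell groups, also after thinning every cell to 4500 UMIs, which left out 0 cells. Igfbp7 had a UMI in 100% of cells, Fstl1 in 94.9%, Igfbp4 in 94.4% and Cxcl12 in 88.5%. After thinning these shares were 100%, 84.7%, 92.1% and 78.5%, against 77.2%, 4.75%, 16.7% and 14.8% of epithelial cells. For Igfbp7 most epithelial cells thus had a UMI too, and its share does not set the cell groups apart. Fgf7 had one in 73.2% of cells as deposited and 54.5% after thinning, against 10.9% and 3.16% of epithelial cells. The thinned shares in matrix fibroblasts and epithelial cells were 56.0% and 2.64% for Igf1, 46.5% and 2.11% for Rspo3, and 22.0% and 0.703% for Fgf10. As deposited they were 74.2% and 8.96%, 67.5% and 6.50%, and 48.6% and 1.76%. The epithelial shares serve as background, and all 3 genes lay above them.

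Some niche genes had most of their UMIs in few cells. The 40 cells with the most Il6 held 97.0% of its UMIs, and Il6 had a UMI in 12.8% of cells (7.42% after thinning, against 5.98% and 2.29% of epithelial cells). The corresponding values were 96.9% and 13.6% for Cxcl14, 95.2% and 20.2% for Igfbp5, 93.2% and 23.8% for Ccl11, and 88.6% and 16.6% for Csf3. For Igfbp5 the share of cells was 13.3% after thinning, against 4.57% of epithelial cells as deposited and 1.58% after thinning. The shares of Cxcl14, Ccl11 and Csf3 are as deposited only, without a background share. For Fgf7, by contrast, the 40 cells with the most held 37.8%. Over the niche genes with enough UMIs the median of this share was 53.1%, against 38.9% over all 4521 genes with a mean of at least 0.5 UMI per cell (61 of them niche genes). The 10 most variable genes beyond counting error included Wfdc21, Igfbp2, Hbegf, F3, Sncg, Ctgf, Il6, Pla2g7 and Igfbp5, and for Wfdc21 a single cell held 56.1% of the UMIs.

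**Figure D4:**
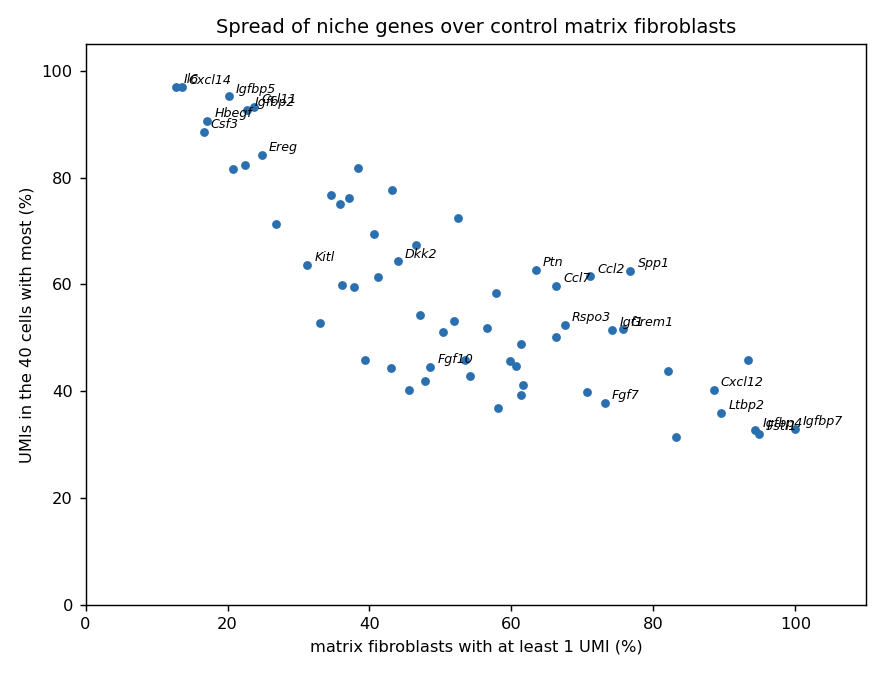
Spread of niche genes over the 391 control matrix fibroblasts: the share of cells with at least 1 UMI against the share of the gene's UMIs held by the 40 cells with the most, both in percent. Il6, Cxcl14, Igfbp5 and Ccl11 lie at the upper left, above 90%, and Igfbp7, Igfbp4, Fstl1 and Cxcl12 at the lower right.

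Single matrix fibroblasts carried several of the ligands at once. Of Fgf7, Fgf10, Igf1, Rspo3 and Cxcl12, at least 3 had a UMI in 80.8% of matrix fibroblasts as deposited, all 5 in 103 cells and none in 9. As deposited, at least 3 had one in 75.1% of contractile-side cells and 0.703% of epithelial cells. After thinning, at least 3 were found in 210 of 391 matrix fibroblasts (53.7%), in 48.2% of contractile-side cells and in 0 of 569 epithelial cells, a count that allows up to 3 cells.

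Ordering the matrix fibroblasts by f minus m into 4 groups of 97 or 98 cells gives values that describe the score and rest on different numbers of AT1-marker cells. The 98 cells nearest the cut (0.000384 to 0.307) held 14 of the 25 AT1-marker cells, and the 98 cells farthest from it (1.5 to 4.9) held 6. From the group nearest the cut to the farthest, Bmp2 was at 20.7, 29.9, 40.1 and 95.8 CPM, and Igfbp6 at 28.1, 33.8, 127.6 and 144 CPM. Dkk2 was at 84.9, 127, 231 and 247 CPM and Ptn at 203, 389, 509 and 512 CPM. Each of these 4 genes was higher in every group than in the one before it, in uneven steps. Rspo3 was at 321, 233, 255 and 125 CPM, Fgf7 at 219, 269.8, 243 and 165 CPM, and Cxcl12 at 1169, 1414, 1034 and 956 CPM, so these 3 had their lowest level farthest from the cut without a fall at every step.

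The same rule, with the control means and SDs, was applied to the IL-1β library. It gave 464 matrix fibroblasts of a base of 480 (96.7%), and 270 with the means and SDs of that library itself. The group compared is therefore nearly the whole IL-1β stromal base, against 45.9% of the control base, and this difference of selection, the treatment and the library cannot be told apart. Of the rule's own genes, Dcn was at 548 CPM in control and 5913 CPM in IL-1β matrix fibroblasts, Lum at 1084 and 652 CPM, and Ogn at 60.9 CPM and 0 UMIs. Outside the niche lists, Saa3, an acute-phase protein gene, was at 8652 CPM in control and 62927 CPM in IL-1β cells, and Mmp3 (stromelysin 1) at 356 and 11270 CPM. The median log2 ratio over all genes was -0.36. Markers of other cells moved as well: the 6 endothelial genes summed to 2.80 CPM in control and 45.8 CPM in IL-1β matrix fibroblasts, led there by Emcn (18.0 CPM), and the 8 AT2 genes to 5600 and 6351 CPM. The 7 AT1 genes summed to 1210 and 287.5 CPM, and each of them was lower. Of 4 pericyte genes with enough UMIs, 2 were higher (Cspg4 and Cox4i2) and 2 neither, and the list of 7 summed to 312 and 257 CPM. The part of endothelial, pericyte and AT2 RNA in the results below was not tested.

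Niche genes differed in both directions between the conditions. Of 78 niche genes with at least 100 UMIs over both groups, 17 were higher and 21 lower in IL-1β matrix fibroblasts, against 2.52% higher and 5.45% lower of 9135 genes. With the whole stromal base of each library the counts were 18 and 26, and without cells with AT1 markers 17 and 22. Hbegf was counted as lower, but without those cells it was at 10.2 CPM in control and 15.6 CPM in IL-1β matrix fibroblasts (ratio 1.52, 1.12 to 2.09). The median log2 ratio of the niche genes, -0.33, was near that of all genes.

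Of 11 cytokine genes with enough UMIs, 6 were higher (Il6, Il11, Lif, Csf3, Tnfsf11 and Spp1), 3 lower (Kitl, Mdk and Ptn) and 2 neither. Several growth factor genes were also higher. Hgf was at 17.1 CPM in control and 70.1 CPM in IL-1β cells (ratio 4.10, 3.35 to 5.07). Ereg was at 60.9 and 215 CPM (3.53, 3.16 to 3.94), and Areg at 4.51 and 93.0 CPM (20.6, 14.3 to 31.0), beside 143 CPM in IL-1β epithelial cells. Il6, Il11, Lif and Csf3, cytokines of acute inflammation, had ratios of 4.87, 21.95, 6.36 and 7.03. Ccl2 was at 719 and 2165 CPM (3.01), Ccl7 at 503 and 1082 CPM (2.15) and Spp1 at 1421 and 15202 CPM (10.7). Without the 5% of barcodes with the most UMIs the ratios of Ccl2 (1.96), Ccl7 (1.69) and Cxcl1 (1.87, 1.76 to 1.99) were below 2-fold. Grem1 was at 609 and 1503 CPM (2.47, 2.38 to 2.56), and Il6 had a UMI in 39.9% of IL-1β matrix fibroblasts (23.9% after thinning, against 7.42% of control matrix fibroblasts, 2.29% of control epithelial cells and 2.77% of IL-1β epithelial cells). The AT2 genes Sftpa1 and Sftpd were also higher in the IL-1β matrix fibroblasts (2.64 and 3.03), and they were at 12379 and 4853 CPM in the IL-1β epithelial cells. The part of free RNA in these ratios was not tested.

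Other ligands were lower with IL-1β. Igf1 was at 447 and 119 CPM (ratio 0.267, 0.249 to 0.286) and Ptn at 417 and 9.04 CPM (0.0217, 0.0173 to 0.0269). Bmp4 was at 82.1 and 5.96 CPM (0.0726, 0.0541 to 0.0957), Kitl at 38.5 and 4.89 CPM (0.127) and Dlk1, a Notch-related gene, at 185 and 21.9 CPM (0.119). Gdf10 had 191 UMIs in control and 0 in IL-1β cells, and the upper 95% limit of its ratio was 0.0133. Ccl11 was at 284 and 81.8 CPM (0.288, 0.264 to 0.313), unlike its neighbors Ccl2 and Ccl7. Among Wnt regulators Rspo1 was lower (0.371) and so were 4 of 5 inhibitors, with Dkk2 at 180.0 and 14.9 CPM (0.0828).

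Several other niche ligands did not pass 2-fold. Fgf7 was at 222.5 and 204 CPM (0.915, 0.854 to 0.981), Fgf10 at 67.6 and 54.2 CPM (0.803), Rspo3 at 227 and 222 CPM (0.978, 0.915 to 1.05) and Cxcl12 at 1132 and 682 CPM (0.603). After thinning, Fgf7 had a UMI in 54.5% of control and 49.8% of IL-1β matrix fibroblasts, and at least 3 of the 5 ligands named above were found in 53.7% and 37.3%. In the IL-1β epithelial cells Fgf7 had a UMI in 2.70% after thinning, and at least 3 of the 5 ligands were found in 0 of 1446 cells, a count that allows up to 3 cells. As deposited, at least 3 were found in 0.415% of IL-1β epithelial cells and 69.2% of IL-1β matrix fibroblasts.

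Of 42 receptors, 2 were higher (Nrp2 and Il1rl1) and 9 lower (Fzd1, Fzd2, Lrp6, Lgr4, Nrp1, Ackr3, Il11ra1, Ptch1 and Smo). Ptch1 was at 125 and 13.1 CPM (0.105), and the hedgehog targets Gli1 and Hhip were lower too, at 14.1 and 2.45 CPM and at 19.1 and 0.425 CPM. Il1r1 itself was at 39.3 and 38.4 CPM (0.977, 0.829 to 1.15). Over all genes, those with the highest ratios were Mmp12 (0 UMIs in control, 574 CPM with IL-1β), Mmp10, Ndufa4l2, Snap25, Ctla2a, Cadm3, Car9, Emcn, Mmp3 and Nxph1. Those with the lowest included Tmem178, Inmt, Cxcl14, Igfbp2, Myoc, Gdf10, Ptn, Vit and Aldh1a1.

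**Figure D5:**
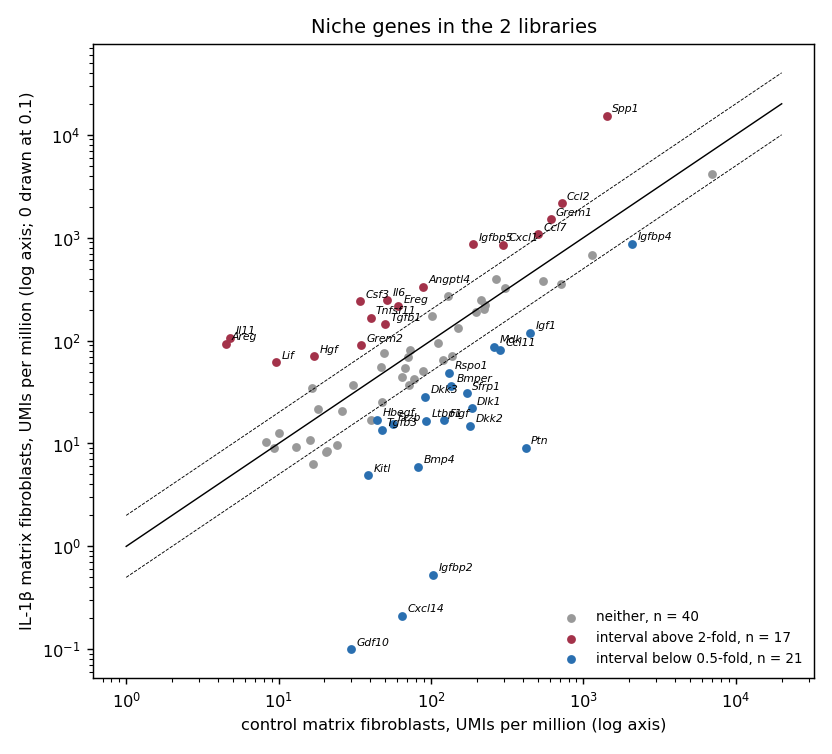
Levels of 78 niche genes in control (horizontal) and IL-1β (vertical) matrix fibroblasts, as CPM on log axes, with 0 drawn at 0.1; the solid line is equality and the dashed lines 2-fold. Red genes (n = 17) have intervals above 2-fold and blue genes (n = 21) below 0.5-fold, and Gdf10, Cxcl14 and Igfbp2 lie lowest.

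Because IL-1 signaling is known to act through the transcription factor NF-κB, promoters of the niche genes were searched for a simplified NF-κB motif, GGGNNNTTCC, on both strands (GGAANNNCCC on the plus strand). Windows ran from 250 bases before to 50 after the gene start in RefSeq on GRCm38.p6, and the motif was held by 5.56% of all 32851 promoters and by at least 1 promoter of 6.31% of 27025 genes. Of the 17, 21 and 40 niche genes that were higher, lower and neither, 11, 14 and 32 had a promoter in the table. The motif was found for 2 of 11 genes that were higher with IL-1β (Il6 and Cxcl1, the latter not counted without the 5% of barcodes with the most UMIs), 3 of 14 that were lower (Rspo1, Kitl and Ltbp1) and 2 of 32 that were neither (Ccl20 and Csf1). The 160 bases before the RefSeq start of 3 of these genes are shown to set a pair of genes that were higher with IL-1β beside one that was lower. Capitals mark the matches, which in Cxcl1 begin 89, 71 and 70 bases before the start, the last 2 overlapping on opposite strands.
Il6, chr5:30012954-30013113, plus strand: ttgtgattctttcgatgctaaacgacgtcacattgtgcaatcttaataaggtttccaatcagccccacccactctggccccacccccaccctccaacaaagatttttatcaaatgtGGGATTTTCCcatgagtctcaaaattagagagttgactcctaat
Cxcl1, chr5:90891085-90891244, plus strand: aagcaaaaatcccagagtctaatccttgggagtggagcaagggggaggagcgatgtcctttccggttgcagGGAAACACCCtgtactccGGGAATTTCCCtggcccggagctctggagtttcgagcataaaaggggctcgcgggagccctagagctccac
Kitl, chr10:100015661-100015820, plus strand: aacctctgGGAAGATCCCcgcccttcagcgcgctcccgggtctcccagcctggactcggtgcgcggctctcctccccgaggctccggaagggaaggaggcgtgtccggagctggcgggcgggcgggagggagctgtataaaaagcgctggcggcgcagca
The match in Il6 begins 44 bases before the start and that in Kitl 152 bases before it. The RefSeq start of Kitl lies 191 bases inside the gene as GENCODE M21 places it, so the stretch shown lies within that gene model, whereas the starts differ by 4 bases for Cxcl1 and 0 for Il6. A match says only that the letters lie in this window.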

How the data were processed

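The authors deposited UMI counts per gene and cell barcode for 2 libraries of mouse organoids, made from 10x 3′ libraries with Cell Ranger on GRCm38, and Scanpy 1.3.6 is named in the submitters' processing notes. The study kept cells with over 500 genes, under 7000 genes and over 2000 UMIs, removed doublets with Scrublet and left stromal cells out of its analysis of the epithelial cells. The deposited counts still hold barcodes outside these cutoffs and the stromal cells, no doublet caller was run, and all 27998 genes and 5167 barcodes were used here. The control library held 33965848 UMIs (median 14613 per barcode) and the IL-1β library 41220175 (median 11496.5), over 3066 barcodes. Epithelial cells had more than 3 times as many UMIs of the epithelial genes as of the stromal genes, with the same limit on cycling genes; 618 control cells met neither ratio and 62 failed only the limit on cycling genes.

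UMIs were summed over the cells of a group and divided by 1000000 UMIs of the group (CPM). Levels carry exact Poisson 95% intervals and ratios exact conditional binomial ones, and they cover counting error only. A count of 0 allows 3 UMIs. Ratios needed 100 UMIs over both groups. The arithmetic of the interval and the counting rule was checked on simulated Poisson counts, with 200 genes changed 4-fold or to 0.25. Of these, 91.0% were recovered for matrix fibroblasts over epithelial cells among 9206 genes. The simulated counts followed the model that the interval assumes, without variation between cells. They therefore do not show how the calls hold for genes with most UMIs in few cells. No test between conditions was made, since each has 1 library.

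Genes named are those of the niche, receptor, target, regulator, matrix and retinoid lists and the cell type markers. The 10 highest and 10 lowest of each comparison, ranked by the interval limit nearest 1 without mitochondrial, ribosomal protein, predicted and rule genes, and the 10 most variable genes were added; a few of these are not reported here. The members and lists were chosen with earlier results of these data known. Alternatives changed the cell filter, factor, cycling limit, cut, deepest cells, UMI minimum, scaling, weight of cells and centring of the IL-1β scores. Those without AT1-marker cells, with epithelial cells chosen without Sparc and with whole stromal bases were chosen after seeing the data. Gene positions are those of GENCODE M21 on GRCm38. Python 3.11.15, numpy 2.4.6, scipy 1.17.1, pandas 2.3.3 and matplotlib 3.10.9 were used.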

Additional observations from a re-analysis of the deposited data

Results flagged for a closer look

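For 4 niche genes the ratio of matrix fibroblasts over epithelial cells had intervals on opposite sides of 1 in the 2 libraries. The difference between the libraries was not tested, since each condition has 1 library. With the epithelial cells of both libraries chosen without Sparc (1126 in control and 2353 with IL-1β), only Cx3cl1 of the 4 still had intervals on opposite sides of 1. Bmp4 had a ratio of matrix fibroblasts over epithelial cells of 1.24 (1.10 to 1.40) in control and 0.195 (0.145 to 0.257) with IL-1β. Against epithelial cells chosen without Sparc the ratios of Bmp4 were 1.02 (0.924 to 1.13) and 0.153 (0.115 to 0.200). Cx3cl1 (fractalkine) had ratios of 8.26 (5.94 to 11.7) and 0.493 (0.412 to 0.588), with 34.3 CPM in IL-1β epithelial cells against 4.89 CPM in control epithelial cells. Its ratios over the epithelial cells chosen without Sparc were 3.47 (2.87 to 4.19) and 0.404 (0.340 to 0.477). Pdgfa had ratios of 1.16 (1.03 to 1.31) and 0.459 (0.411 to 0.513). Of its control UMIs in matrix fibroblasts 25.4% were in AT1-marker cells, and without them its control ratio was 0.917, so the places then did not change. Chosen without Sparc, the epithelial cells gave Pdgfa ratios of 0.532 (0.482 to 0.586) and 0.277 (0.2498 to 0.307). Hbegf had ratios of 1.36 (1.15 to 1.61) and 0.470 (0.393 to 0.560), and in control most of its UMIs in matrix fibroblasts were in the 25 cells with AT1 markers, and without them the control ratio was 0.313. The ratios of Hbegf over epithelial cells chosen without Sparc were 0.507 (0.445 to 0.576) and 0.224 (0.190 to 0.264).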

How the results depend on the processing

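The count of niche genes higher in matrix fibroblasts than in epithelial cells stayed between 56 and 72 under every alternative run, and the count higher with IL-1β between 16 and 19. Requiring f and m to differ by 0.5 left 260 members, with 11 niche genes higher and 4 lower than in contractile-side cells. With the study's cutoffs 2 were higher than in contractile-side cells. A factor of 10 gave 4 niche genes lower than in epithelial cells, since with 108 epithelial cells Fgf1, Wnt7b and Il34 no longer reached 100 UMIs (ratios 0.153, 0.0409 and 0.188), and 2 lower than in contractile-side cells. It moved the log2 ratio over epithelial cells of 23 niche genes by more than 1.5 times, and choosing epithelial cells without Sparc that of 16. With the factor of 10, Kitl went from 6.05 to 4.77, Ptn from 7.0 to 8.24, Dkk2 from 6.59 to 7.99 and Figf from 5.52 to 6.49. A minimum of 10 UMIs gave 2 lower than in contractile-side cells and 33 lower with IL-1β, since more genes were then compared. Without AT1-marker cells 2 were lower than in contractile-side cells, and with epithelial cells chosen without Sparc 11 were lower than in epithelial cells. For single niche genes over epithelial cells, 609 of the values under the 9 alternatives stayed near the reported one, 104 moved and 0 of those counted changed sign. Hbegf, not counted either way, went from a log2 ratio of 0.44 to -1.68 without AT1-marker cells. With epithelial cells chosen without Sparc, Tgfb2 went from 5.16 to 2.40, Pdgfc from 7.29 to 4.56, Nrg1 from 2.77 to 0.91, Igfbp2 from 2.92 to 0.90 and Vegfa from 1.22 to 0.05. Scaling without surfactant, lysozyme, secretoglobin, mitochondrial and ribosomal genes shifted every gene by -0.26 (log2) against epithelial cells. No paired analysis was possible because each condition has 1 library, so no library could be left out either.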

Other observations

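Genes of retinoid synthesis, which supplies retinoic acid to developing and repairing alveoli, lay partly with the matrix fibroblasts. Aldh1a2 was at 22.7 CPM in matrix fibroblasts and 0.349 CPM in epithelial cells (ratio 64.9, 21.8 to 318.5), and Aldh1a1 at 46.9 against 5.13 CPM. Rbp4 was at 17.2 against 53.7 CPM and Rdh10 at 24.2 against 28.0 CPM. In IL-1β matrix fibroblasts Aldh1a1 was at 0.957 CPM (0.0204 of control) and Rdh10 at 7.55 CPM (0.312).

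Genes of lipid handling were present in the control matrix fibroblasts. Lpl (lipoprotein lipase) was at 432 CPM, Fabp4 at 282 CPM and Plin2, which coats lipid droplets, at 101 CPM, against 25.4, 13.5 and 125 CPM in epithelial cells. With IL-1β, Plin2 was at 438 CPM (ratio 4.33, 3.99 to 4.71) and Lpl at 233 CPM (0.538, 0.509 to 0.570).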
